A study of Mus musculus with 31 samples.

Results

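Masseter muscle (MM) collected late after a high dose of collagenase type 2 (Col) was compared directly with MM collected early after the same dose. The comparison takes in 8 of the 31 libraries of the series, namely the 4 whose titles carry 12d post-col and the 4 whose titles carry 2d post-col. All 8 came from adult male C57BL/6J mice whose left MM had received an injection of 10U Col, an enzyme preparation that degrades extracellular matrix. Each library was made from the whole MM of 1 mouse, with tendon mostly left out, so a group is 4 mice and a value belongs to all cell types of the muscle together. The names 2d and 12d are those of the labels, whereas the methods place these collections at day 1 and day 14, and the names of the labels are kept here. No mouse in either group was without Col, and 3 mice at 6d after 10U Col and 3 vehicle-treated mice are used below only as reference levels. Mice of different groups were different animals, so the comparison is between mice and not within them.

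When muscle fibres are injured, resident and fibre cells release chemokines that bring in neutrophils and then monocytes, which become macrophages and clear debris. Satellite cells, the stem cells of muscle, then divide, differentiate under factors such as Myod1 and Myog and fuse into new fibres, which use embryonic isoforms of contractile proteins before the adult isoforms. Fibroblasts and fibro-adipogenic progenitors rebuild the matrix during this time. The question addressed was which of these programmes differed between the early and the late collection.

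The libraries held 14843778 to 27573542 reads on genes (median 16501168.5), so 10 counts correspond to 0.363 to 0.674 CPM, the counts of a gene scaled to a common library size. A pair of mice stood apart from their groups. On the axis that carried 50.8% of the variance of log2 CPM, 2d mice 1 to 3 lay at -82, -77.6 and -67.2 but 2d mouse 4 at 10.9, and 12d mice 1 to 3 lay at 66.1, 65.1 and 62.4 but 12d mouse 4 at 22.2. RNA of the salivary gland, which lies next to the MM, was present in some libraries: its markers took 14.3%, 16.6%, 0.00962% and 21.6% of the counts of 2d mice 1 to 4, against 0.00722% to 0.093% at 12d. It thus moved with the collection time in 3 of 4 mice, and its part in the results was not tested apart from the alternatives given below. Of 15 tested salivary markers 7 passed the test described below, all lower at 12d, and 7 did without 2d mouse 4, among them Smr3a at 43065, 56250, 8.96 and 65253 CPM at 2d and 6.22 to 179 CPM at 12d. The 10 markers of skeletal muscle fibres were high in all 8 libraries, with a mean log2 CPM of 11.40 to 12.84 at 2d and of 12.63 to 13.93 at 12d.

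Genes that fell from 2d to 12d included chemokines, macrophage, stress and cell cycle genes, and genes that rose included respiratory chain genes and some genes of the adult sarcomere. Of 14459 genes that reached 10 counts in 3 or more of the 8 libraries, 491 (3.40%) were higher and 774 (5.35%) lower at 12d at an adjusted p under 0.05 by edgeR's quasi-likelihood test with Benjamini-Hochberg adjustment, which is the meaning of passed, rose and fell in this text. Where a change of more than 2-fold and a mean above 1 RPKM in either group were also required, 230 differentially expressed genes (DEGs) were higher (1.59%) and 497 lower (3.44%). Log2 fold changes are given as 12d over 2d with their standard error (SE), and their median over all tested genes was 0.02. In whole muscle, fewer cells of a type and less RNA per cell cannot be told apart.

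Many genes lay close to the threshold. The smallest adjusted p was 0.00373, and 936 of the genes that passed had an adjusted p from 0.04 to 0.05, while a further 987 genes lay from 0.05 to 0.06 and 5621 genes had an unadjusted p under 0.05. Calls also changed with single mice. Without 2d mouse 4, 3139 genes passed as higher (22.0% of those tested) and 3009 as lower (21.1%), and without 12d mouse 4 1411 and 2162 passed. Without 2d mouse 1 only 1 gene passed as higher and 13 as lower, without 2d mouse 2 0 and 1, without 2d mouse 3 34 and 325, without 12d mouse 1 0 and 0, without 12d mouse 2 1 and 1, and without 12d mouse 3 0 and 1, although 3752 to 4320 genes had an unadjusted p under 0.05 in these 6 fits. Among the genes called without 2d mouse 4 were 491 of the 491 and 754 of the 774. The counts of gene lists are given over all 8 mice and without 2d mouse 4. Of the fits that leave out 1 mouse, the latter called the most genes. Its list counts stand against its shares of 22.0% higher and 21.1% lower over all tested genes. For every list, the lowest count over the fits that leave out 1 mouse was 0 in both directions.

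**Figure D1:**
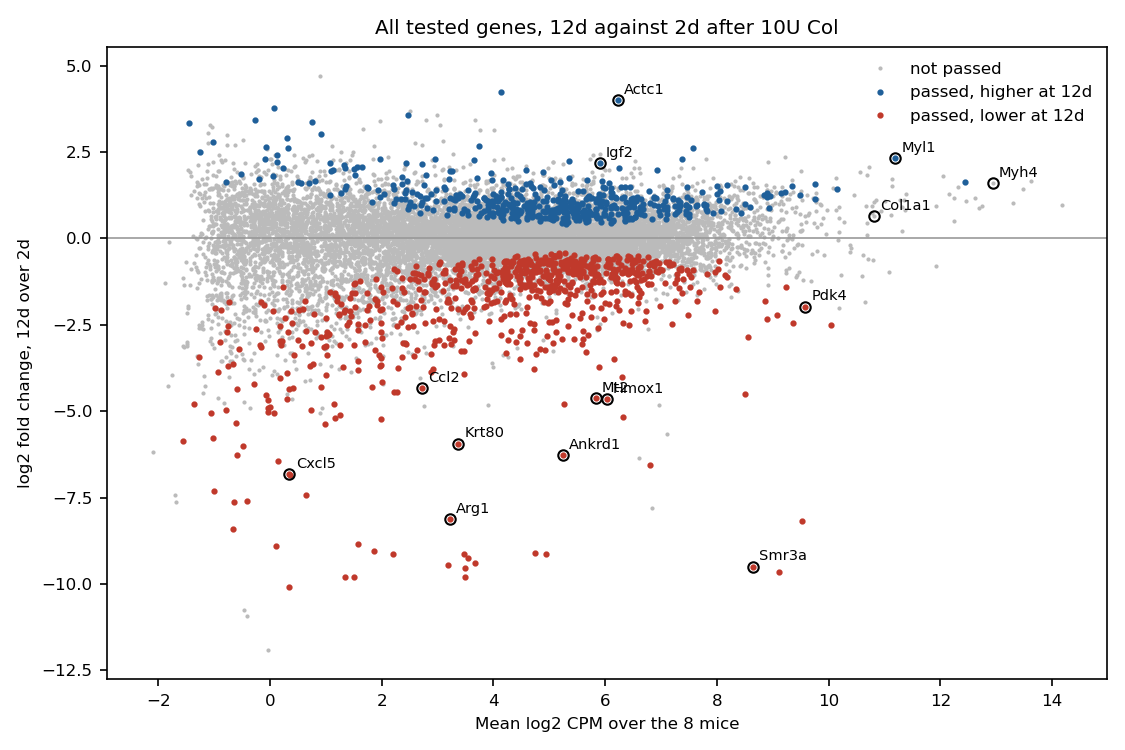
Each point is 1 of the 14459 tested genes, with its mean log2 CPM over the 8 mice on the x axis and its log2 fold change, 12d over 2d, on the y axis; blue genes passed as higher at 12d (491), red genes as lower (774), and grey genes did not pass. Arg1, Smr3a, Krt80 and Ankrd1 lie far below 0 and Actc1 lies at 4.01, while Col1a1 and Myh4, circled in grey, did not pass.

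Chemokines that attract monocytes were higher early. Of 7 tested monocyte chemoattractants and their receptors 4 passed, all lower at 12d, and 5 passed without 2d mouse 4; the median log2 fold change of the 7 was -3.07. Ccl2 (chr11:81849073-81850955 in mm9), a ligand of the receptor Ccr2, measured 37.6, 33.2, 59.9 and 5.7 CPM in 2d mice 1 to 4 and 1.02, 1.12, 2.19 and 2.36 CPM in 12d mice 1 to 4. All 2d mice lay above all 12d mice, with 2d mouse 4 nearest to them. The log2 fold change was -4.34 (SE 0.68, adjusted p = 0.0264), and the adjusted p ran from 4.17e-10 to 0.115 over the alternatives. Ccl7 and Ccl12, close relatives of Ccl2, fell by 4.45 and 3.07 on the log2 scale, and so did the chemokine receptor Ccr1 with -3.07. Ccr2 itself, which marks recruited monocytes, was at 50.4, 41.4, 66 and 37.9 CPM at 2d and at 12, 5.67, 13.4 and 37.4 CPM at 12d and did not pass (log2 fold change -1.51, adjusted p = 0.0697). 12d mouse 4 was level with 2d mouse 4 for Ccr2, and the other 12d mice were lower.

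Genes of neutrophil attraction and of acute cytokine signalling followed the same direction. Of 19 tested neutrophil genes 7 passed, all lower at 12d, and 10 did without 2d mouse 4; the median was -2.28, and the groups did not overlap for 6 of the 19, against 6.53% of all tested genes in that direction. Cxcl5, a ligand of the neutrophil receptor Cxcr2, measured 11.7, 19.7, 29.9 and 0.561 CPM at 2d and 0.17, 0, 0 and 0.308 CPM at 12d, with a log2 fold change of -6.81 (SE 1.28, adjusted p = 0.0365) that rests on at most 6 counts per library at 12d. Cxcl2, a related ligand, was at 12.1, 12.6, 25 and 0.0864 CPM at 2d and at 0 to 0.257 CPM at 12d, at most 4 counts per library (log2 fold change -6.44, adjusted p = 0.0444). 2d mouse 4 had almost none of this RNA and lay within the range of the 12d mice for Cxcl2. Cxcr2 and the decoy receptor of interleukin 1, Il1r2, also fell, by 5.02 and 4.31. The abundant granule genes S100a8 and S100a9 did not pass (adjusted p = 0.19 and 0.181), with 12d mouse 4 at 33.4 and 57.6 CPM, inside the 2d ranges of 11.2 to 77.1 and 23.2 to 115 CPM. On a scale set over 14 libraries, vehicle mice were at 80.1, 1.93 and 274 CPM for S100a8 and at 124, 4.28 and 468 CPM for S100a9. Vehicle mice 1 and 3 thus lay above every 2d mouse for both genes, and the cause was not tested.

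Among 16 tested acute cytokines and acute-phase genes 4 passed, all lower at 12d, and the median was -2.59. Without 2d mouse 4, 14 passed. Socs3, an inhibitor of cytokine signalling that cytokines themselves induce, was at 116, 169, 160 and 11.1 CPM at 2d and at 8.76, 10.5, 15 and 14.7 CPM at 12d. 2d mouse 4 lay inside the 12d range and the other 2d mice far above it, and the log2 fold change was -3.22 (SE 0.69, adjusted p = 0.0435). Saa3, an acute-phase protein with at most 9 counts in any 12d library, fell by 4.92, Il11 by 4.20 and Csf1, the growth factor of macrophages, by 1.65. Il1b, which drives fever and local inflammation, missed the threshold (8.33, 8.22, 14.4 and 0.95 CPM at 2d, 0.339 to 2 CPM at 12d, log2 fold change -3.03, adjusted p = 0.0518), as did Il6 (adjusted p = 0.066). Tnf stayed at or under 2.2 CPM in every mouse.

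The mean log2 CPM of the monocyte and macrophage list was lower in 12d mice 1 to 3 than in every 2d mouse. That of 12d mouse 4, at 4.15, lay inside the 2d range of 3.81 to 5.13. Members differed, and 12d mouse 4 was below every 2d mouse for Arg1, Clec4e and Cd163. Of 38 tested monocyte and macrophage genes 8 passed, all lower at 12d; without 2d mouse 4, 1 was higher and 14 were lower. Arg1 (chr10:24635014-24647276), the arginase of alternatively activated macrophages, measured 171, 223, 477 and 9.29 CPM at 2d and 0.678, 1.75, 0.257 and 0.514 CPM at 12d. Every 2d mouse exceeded every 12d mouse, and Arg1 had the largest fall among DEGs without overlap of the groups (log2 fold change -8.12, SE 1.22, adjusted p = 0.0225, range over the alternatives 1.84e-17 to 0.115). Arg1 was also present in vehicle libraries that held salivary gland RNA, at 32 and 7.09 CPM against 0.14 CPM in the vehicle library with little of it, and at 2d it was highest in mouse 3, which had almost none; the part of that RNA was not tested. Cd68, a lysosomal protein of macrophages, was at 102, 97, 145 and 19.8 CPM at 2d and at 5.48, 4.06, 6.37 and 28.6 CPM at 12d. 12d mouse 4 exceeded 2d mouse 4, so the groups overlap, and the log2 fold change was -3.02 (SE 0.77, adjusted p = 0.0483). Itgam, an integrin subunit of myeloid cells, Clec4e, a receptor for damaged cells and mycobacterial lipids, and Cd163, the scavenger receptor for haemoglobin, fell by 2.82, 4.66 and 1.15. Csf1r, the receptor that macrophages need to survive, did not pass (log2 fold change -0.41, SE 0.47), with 12d mouse 4 at 107 CPM above every 2d mouse.

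Of 24 tested genes of lipid-handling repair macrophages 2 passed, both lower at 12d, and without 2d mouse 4 4 were higher and 9 lower. Lgals3, a galectin of phagocytes, fell from 118, 136, 196 and 43.8 CPM at 2d to 13.2, 11.5, 19.2 and 55.8 CPM at 12d (log2 fold change -2.31, SE 0.60, adjusted p = 0.0496), and the tetraspanin Cd63 by 1.49. Trem2, a lipid receptor of macrophages, was at 14.3, 12.8, 17.2 and 4.66 CPM at 2d and at 1.53, 1.4, 2.38 and 18.2 CPM at 12d and did not pass (adjusted p = 0.372). Gpnmb, a membrane protein of the same cells, had its highest value of the 8 in 12d mouse 4 too (42.5 CPM against 4.97 to 12.3 CPM in the other 12d mice). Spp1, which encodes osteopontin, was at 82.6 to 1011 CPM at 2d and at 84.7 to 405 CPM at 12d (adjusted p = 0.184).

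Antigen presentation, lymphocyte and interferon-stimulated genes did not pass over the 8 mice. By edgeR 0 of 18 MHC class II and dendritic cell genes, 0 of 9 T cell, NK cell and B cell genes and 0 of 19 interferon-stimulated genes passed, while 1, 1 and 2 had an unadjusted p under 0.05 and 0, 1 and 1 passed by DESeq2. Over all 14459 tested genes, 5621 had an unadjusted p under 0.05, and DESeq2 called 2015 higher and 2330 lower. Without 2d mouse 4, 1 gene of the MHC class II list was lower, and 1 lymphocyte and 3 interferon-stimulated genes were higher. Cd74, the invariant chain of MHC class II, was at 95.9, 131, 201 and 159 CPM at 2d and at 119, 77.9, 203 and 374 CPM at 12d (log2 fold change 0.40, SE 0.46, adjusted p = 0.534). The highest score of these 3 lists was that of 12d mouse 4, with mean log2 CPM values of 3.45, 1.54 and 4.27 against upper limits of 2.73, 0.65 and 3.44 in the other 7 mice. Only 9 of 26 lymphocyte genes reached the count minimum, and Cd3e, a T cell receptor component, was at or under 0.463 CPM in every mouse. Of 16 complement genes 1 passed, Cfp, the stabiliser of the alternative pathway convertase, which fell by 1.69 (adjusted p = 0.04), and without 2d mouse 4, 2 were higher and 3 lower. In that fit 22.0% of all tested genes were higher and 21.1% lower.

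**Figure D2:**
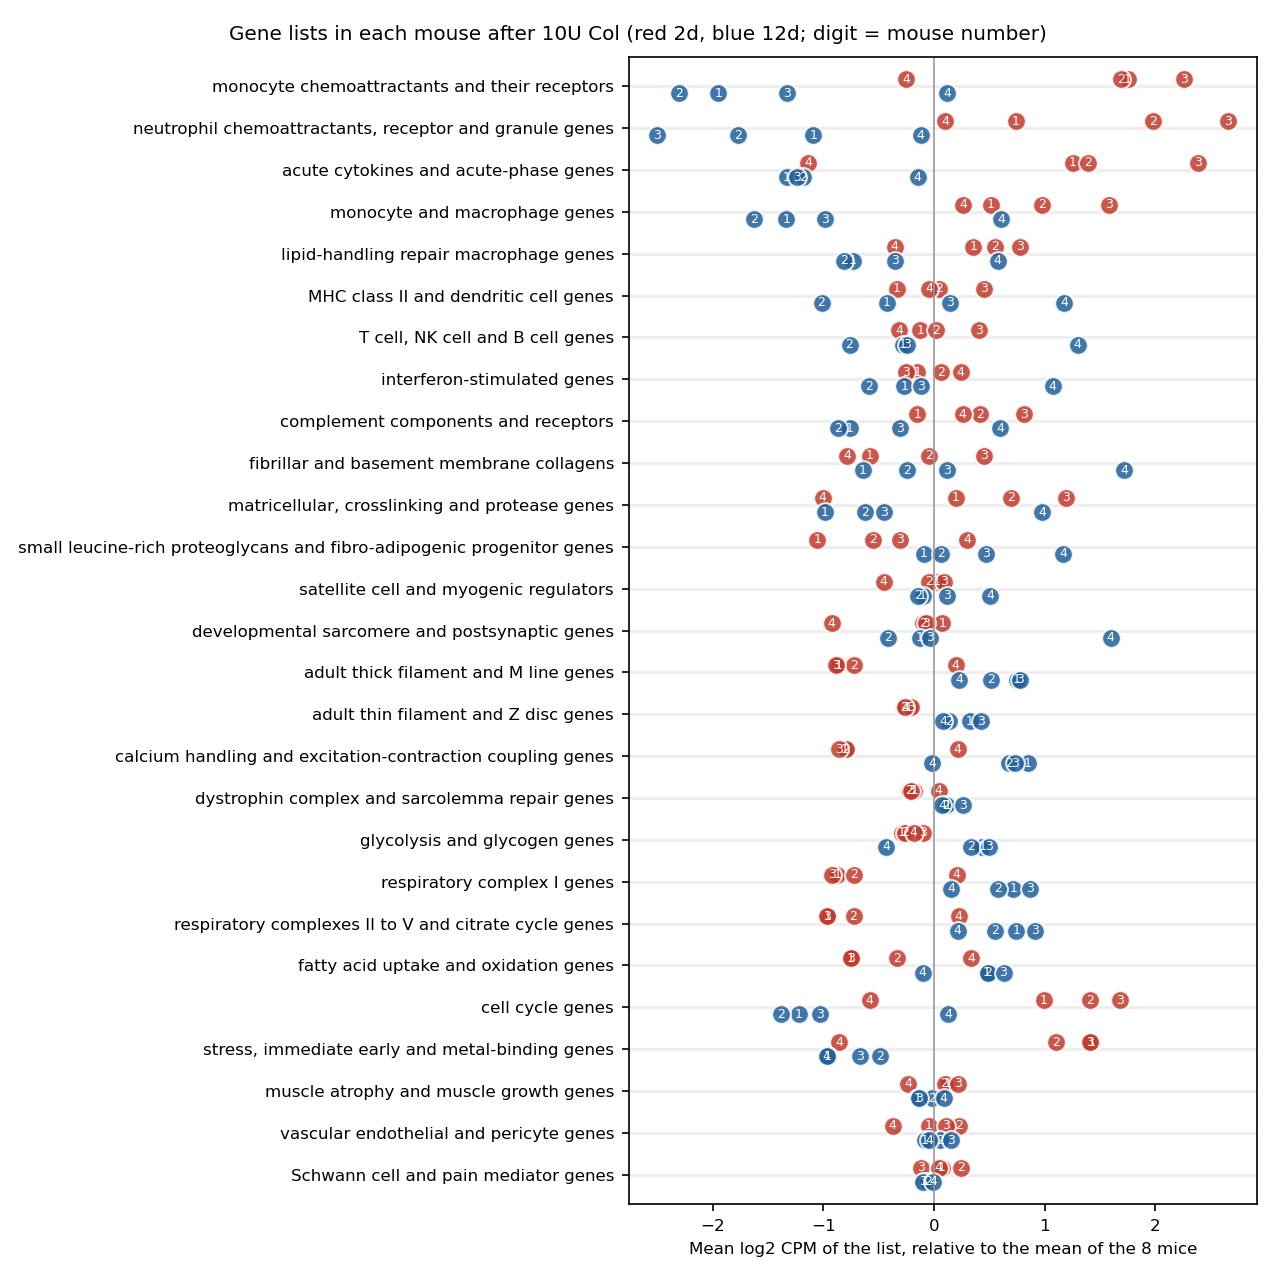
Each row is a gene list and each point a mouse, numbered, red at 2d and blue at 12d; the x axis gives the mean log2 CPM of the tested members relative to the mean of the 8 mice. 2d mouse 4 lies apart from the other 2d mice in the stress, calcium handling, thick filament and respiratory lists, and 12d mouse 4 lies to the right of the other 12d mice in the immune, collagen and developmental lists.

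Stress and metal-binding genes formed another early group. Of 31 tested stress, immediate early and metal-binding genes 10 passed, all lower at 12d; without 2d mouse 4, 2 were higher and 23 lower, and the median over 8 mice was -2.0. The metallothioneins Mt2 (chr8:96696518-96697467) and Mt1 (chr8:96702989-96704225) bind zinc and copper and are neighbours on the same strand in mm9. Mt2 measured 448, 454, 516 and 24.6 CPM at 2d and 11.2, 12.8, 13.4 and 21.2 CPM at 12d, and Mt1 481, 531, 594 and 27.3 CPM against 19.8, 23.3, 23.1 and 35.1 CPM. 2d mice 1 to 3 stood far above all others, whereas 2d mouse 4 was close to the 12d mice and for Mt1 lower than 12d mouse 4. The log2 fold changes were -4.62 (SE 0.81, adjusted p = 0.0323) for Mt2 and -4.01 (SE 0.79, adjusted p = 0.0379) for Mt1. Hmox1 (chr8:77617490-77624495), which breaks down haem, was at 440, 410, 591 and 76.4 CPM at 2d and at 12, 9.17, 13.9 and 25.1 CPM at 12d, with no overlap (log2 fold change -4.65, SE 0.64, adjusted p = 0.0211, range over the alternatives 3.27e-14 to 0.107). Myc, a growth regulator, fell from 164, 133, 143 and 15.8 CPM to 6.95, 7.77, 8.62 and 9.97 CPM (log2 fold change -3.77, SE 0.62, adjusted p = 0.0298). The stress transcription factor Atf3, the endoplasmic reticulum chaperone Hspa5, Trib3 and the antioxidant enzyme Srxn1 fell by 2.48, 2.46, 3.35 and 2.39.

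The promoters of both metallothionein genes are printed because the genes lie side by side and moved together. They come from RefSeq on build GRCm38.p6, are the windows of 300 bases across the start of each gene, and were searched on both strands for the core of the metal response element, spelled TGCACNC or TGCGCNC; capitals mark matches.
Mt2, chr8:94172368-94172667, + strand: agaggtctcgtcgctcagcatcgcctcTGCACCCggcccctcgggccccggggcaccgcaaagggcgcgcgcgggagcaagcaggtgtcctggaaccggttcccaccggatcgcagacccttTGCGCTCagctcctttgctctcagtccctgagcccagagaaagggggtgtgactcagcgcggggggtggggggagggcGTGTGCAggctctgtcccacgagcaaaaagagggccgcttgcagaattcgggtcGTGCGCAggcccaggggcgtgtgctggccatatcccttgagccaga
Mt1, chr8:94178839-94179138, + strand: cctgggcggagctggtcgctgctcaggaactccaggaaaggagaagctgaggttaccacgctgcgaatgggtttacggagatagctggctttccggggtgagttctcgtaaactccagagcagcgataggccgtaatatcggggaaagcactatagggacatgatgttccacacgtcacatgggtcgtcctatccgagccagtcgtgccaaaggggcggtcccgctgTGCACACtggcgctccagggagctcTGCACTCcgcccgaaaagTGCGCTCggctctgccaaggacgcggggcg
The Mt2 window held 4 matches and the Mt1 window 3. Of 32841 promoters of this length 25.7% held at least 1 match and 1.97% held 3 or more.

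Cell cycle genes were higher early. Of 33 tested cell cycle genes 9 passed, all lower at 12d, and 32 did without 2d mouse 4; the median was -1.87, and 32 of the 33 were lower at 12d in log2 fold change. Mcm5, a subunit of the helicase that opens DNA for replication, was at 21.3, 27.2, 33.6 and 6.39 CPM at 2d and at 3.33, 2.1, 4.12 and 7.4 CPM at 12d (log2 fold change -2.38, SE 0.54, adjusted p = 0.0456). 12d mouse 4 exceeded 2d mouse 4. The mitotic kinase Plk1 and the sliding clamp Pcna fell by 2.48 and 1.10. Mki67, which marks dividing cells, measured 77.8, 97, 148 and 25.2 CPM at 2d and 12.5, 11.2, 12.7 and 41.7 CPM at 12d and missed the threshold (log2 fold change -2.15, SE 0.60, adjusted p = 0.0546).

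**Figure D3:**
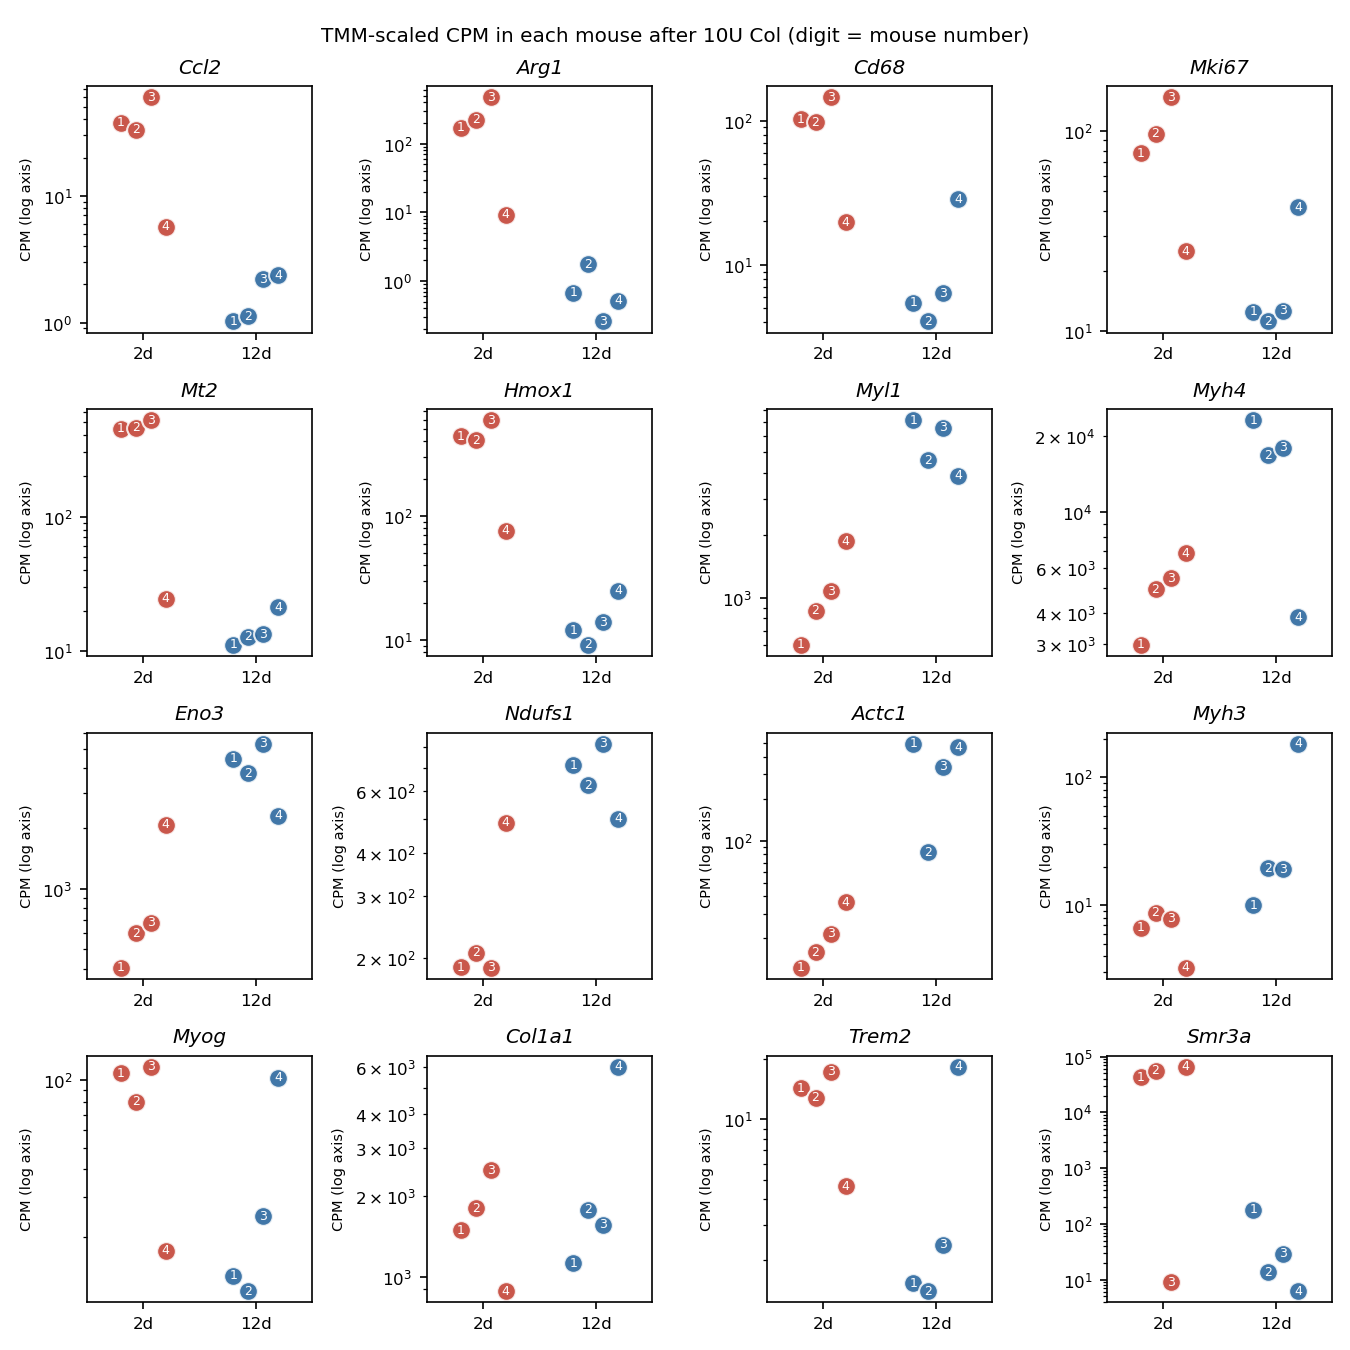
CPM of 16 genes in each mouse, on log axes, with 2d in red and 12d in blue and the mouse number in each point. Ccl2, Arg1, Hmox1, Mt2, Myl1, Eno3, Ndufs1 and Actc1 do not overlap between the groups, whereas 12d mouse 4 lies within or above the 2d range for Cd68, Mki67, Myog, Myh4 and Trem2, and Smr3a is low in 2d mouse 3.

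The gene with the largest rise among DEGs without overlap was Actc1 (chr2:113873018-113879284), the cardiac actin that skeletal muscle uses during development. It measured 12.3, 15.9, 21.7 and 36.3 CPM at 2d and 497, 82.7, 339 and 468 CPM at 12d. 12d mouse 2 was the lowest of its group and still above every 2d mouse. The log2 fold change was 4.01 (SE 0.60, adjusted p = 0.0225, range over the alternatives 4.12e-11 to 0.111). In vehicle-treated mice Actc1 was at 106, 165 and 78 CPM on a scale set over 14 libraries, and on this scale 12d mice 1, 3 and 4, at 470, 320 and 469 CPM, lay above them and all 2d mice, at 11.8 to 36.8 CPM, below. At 6d it was at 621, 554 and 579 CPM, above every 12d mouse. The Actc1 promoter window is printed with its match to the CArG box, the binding motif of serum response factor, in capitals; both strands were searched.
Actc1, chr2:114052826-114053125, - strand: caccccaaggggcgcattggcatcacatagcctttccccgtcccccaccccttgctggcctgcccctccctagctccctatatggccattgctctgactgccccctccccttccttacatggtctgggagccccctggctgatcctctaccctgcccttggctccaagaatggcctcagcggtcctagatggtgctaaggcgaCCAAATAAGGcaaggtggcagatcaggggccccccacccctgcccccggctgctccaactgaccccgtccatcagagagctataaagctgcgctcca
The motif occurred 1 time in this window and in 1.63% of all 32841 promoters.

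For several other developmental and postsynaptic genes single mice lay far from their groups. Of 20 tested members 2 rose and 1 fell, and 8 rose and 5 fell without 2d mouse 4. Without both mice numbered 4, a setting chosen after seeing the data, 10 rose and 9 fell. Over all genes tested in that fit, 4062 were called higher and 4123 lower. Colq, the collagen tail that anchors acetylcholinesterase at the neuromuscular junction, rose from 3.17, 4.27, 3.87 and 7.9 CPM to 18.5, 20.1, 15.5 and 21.1 CPM (log2 fold change 1.96, SE 0.29, adjusted p = 0.0225). Ankrd1, a stretch-responsive ankyrin repeat protein, was at 1170, 589, 850 and 5.44 CPM at 2d and at 3.96, 3.08, 4.18 and 22.7 CPM at 12d (log2 fold change -6.26, SE 1.43, adjusted p = 0.0457). 2d mouse 4 was below 12d mouse 4, while the other 2d mice were far above. Myh3, the embryonic myosin heavy chain of new fibres, was at 6.65, 8.78, 7.83 and 3.24 CPM at 2d and at 10, 19.4, 19.2 and 183 CPM at 12d. The groups do not overlap, but 12d mouse 4 alone was far above the rest, and the gene did not pass (log2 fold change 3.14, SE 0.93, adjusted p = 0.0586). Chrng, the fetal acetylcholine receptor subunit, Tnnt2, the cardiac troponin T of developing muscle, and Sln, an inhibitor of the calcium pump, were likewise at 16.7, 76.7 and 157 CPM in 12d mouse 4 and at most 1.09, 3.73 and 13.5 CPM in the other 12d mice, and none of these passed.

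Among 21 tested satellite cell and myogenic regulators 1 rose and 1 fell. Without 2d mouse 4, 7 rose and 4 fell, against 22.0% and 21.1% of all tested genes. Cdkn1c, an inhibitor of the cell cycle that acts in myoblast differentiation, rose from 28.6, 30.7, 32.3 and 61.6 CPM to 93.9, 95.8, 130 and 110 CPM (log2 fold change 1.49, SE 0.26, adjusted p = 0.0323). Sdc4, a proteoglycan of satellite cells, fell by 0.84. Myog, the factor of differentiating myoblasts, was high in 2d mice 1 to 3 at 107, 79.7 and 114 CPM and in 12d mouse 4 at 102 CPM, and low in 2d mouse 4 at 17.4 CPM and in 12d mice 1 to 3 at 13.5, 11.5 and 24.8 CPM. It did not pass (log2 fold change -1.06, SE 0.78, adjusted p = 0.33). Myod1 was at 92.5 to 175 CPM at 2d and 57 to 131 CPM at 12d (adjusted p = 0.383), and Pax7, which marks quiescent satellite cells, at 0.3 to 2.25 CPM and 2.71 to 4.16 CPM (log2 fold change 1.66, SE 0.56, adjusted p = 0.0716). The fusion gene Tmem8c, whose protein is known as myomaker, was at 40.8 CPM in 12d mouse 4 and at 0.302 to 5.34 CPM in the other 7 mice.

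Some adult contractile genes were higher late, while others, among them Myh4 and Acta1, did not pass. Of 19 tested thick filament and M line genes 4 passed, all higher, and 15 did without 2d mouse 4; the median was 1.15. Myl1 (chr1:66970869-66991978), an alkali light chain of fast myosin, measured 599, 872, 1079 and 1881 CPM at 2d and 7116, 4597, 6557 and 3873 CPM at 12d. The groups do not overlap, and the mouse numbered 4 was nearest to the other group in both. The log2 fold change was 2.32 (SE 0.44, adjusted p = 0.0365, range over the alternatives 1.63e-07 to 0.134). Mylpf, the regulatory light chain of fast fibres, and the M line proteins Myom1 and Myom2 rose by 1.63, 1.26 and 1.32. Myh4, the heavy chain of the fastest fibres, was at 2990, 4948, 5481 and 6881 CPM at 2d and at 23018, 16741, 17928 and 3843 CPM at 12d. 12d mouse 4 lay inside the 2d range and Myh4 did not pass (log2 fold change 1.60, SE 0.60, adjusted p = 0.0882). Of the 50-base windows of its transcripts 18.8% occur in other genes, chiefly Myh1 and Myh2, so its counts leave out shared reads.

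Of 28 tested thin filament and Z disc genes 3 rose and 2 fell, and 14 rose and 5 fell without 2d mouse 4. Tmod4 and Lmod3, which cap and nucleate thin filaments, and Smtn, a smooth muscle actin-binding protein, rose by 1.38, 0.81 and 0.98. The members that fell were Csrp3, a Z disc protein that responds to load, at 747, 520, 646 and 276 CPM at 2d and 75.1, 133, 145 and 156 CPM at 12d (log2 fold change -2.11, SE 0.35, adjusted p = 0.0298), and Xirp1, a protein of injured and remodelling fibres, with -2.32 (adjusted p = 0.0476). Acta1, the adult skeletal actin, did not pass (log2 fold change 0.98, adjusted p = 0.179). Of 23 calcium handling genes 1 passed, Srl, encoding sarcalumenin, which rose by 1.42, and 19 rose and 2 fell without 2d mouse 4. Casq1, the calcium store protein, was at 587, 571, 706 and 1979 CPM at 2d and at 4484, 3278, 3931 and 2094 CPM at 12d and missed the threshold (log2 fold change 1.84, SE 0.50, adjusted p = 0.0519), and the parvalbumin gene Pvalb did too (1.82, adjusted p = 0.0629). Of 20 dystrophin complex and repair genes 4 passed, all higher, among them the dystrobrevin Dtna (1.0), sarcospan (Sspn, 0.67) and Cav3 (1.06), the caveolin of muscle; without 2d mouse 4, 9 were higher and 1 lower. Dmd itself differed by 0.08 (SE 0.16).

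Mitochondrial genes were higher late. Of 36 tested genes of respiratory complex I 11 passed, all higher at 12d, and 35 did without 2d mouse 4; all 36 had a positive log2 fold change, with a median of 1.09. Of 53 genes of complexes II to V and the citrate cycle 12 passed, all higher, 51 did without 2d mouse 4, and all 53 were positive with a median of 1.14. The groups did not overlap for 13 of the 36 and 26 of the 53, against 8.94% of all tested genes in that direction. Ndufs1, the largest subunit of complex I, measured 188, 207, 187 and 486 CPM at 2d and 711, 623, 819 and 500 CPM at 12d. 2d mouse 4 and 12d mouse 4 were nearly level, and the log2 fold change of 1.31 (SE 0.36) missed the threshold (adjusted p = 0.0527). Ndufs3, a core subunit of the same complex, rose by 1.33, Uqcrc2 of complex III by 1.20, Cox6c of complex IV by 0.97 and Atp5k of the ATP synthase by 1.46. Counts of Atp5h, which rose by 0.93, leave out reads shared with other loci, as 36.4% of its windows are shared.

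Glycolytic genes moved in both directions. Of 24 tested genes of glycolysis and glycogen use 4 rose and 4 fell, and 12 rose and 6 fell without 2d mouse 4. Those that rose were Pgam2, the muscle phosphoglycerate mutase, with 314, 500, 499 and 829 CPM at 2d and 1900, 1605, 2109 and 769 CPM at 12d (log2 fold change 1.58, SE 0.40, adjusted p = 0.0483), and Tpi1, Pgk1 and Phka1, the muscle subunit of phosphorylase kinase, by 1.14, 1.45 and 1.51. Those that fell were Slc2a1, the glucose transporter of most proliferating cells, with 273, 168, 213 and 17.5 CPM at 2d and 21.3, 20.2, 22.3 and 16.5 CPM at 12d (log2 fold change -3.06, SE 0.66, adjusted p = 0.0444), the hexokinases Hk1 and Hk3 by 1.40 and 2.72, and the gene listed as Pgm1 by 1.48. 2d mouse 4 lay within the 12d range for Slc2a1. The insulin-sensitive transporter Slc2a4 was at 133, 249, 192 and 697 CPM at 2d and at 1096, 1137, 1113 and 389 CPM at 12d and did not pass (log2 fold change 1.55, SE 0.56, adjusted p = 0.0837). Of 29 fatty acid genes 2 rose and 1 fell, and 22 rose and 2 fell without 2d mouse 4. Acads and Decr1, enzymes of mitochondrial oxidation, rose by 1.28 and 1.20, and Pdk4, the kinase that shuts pyruvate dehydrogenase and is induced by fasting, fell from 2047, 1962, 1527 and 908 CPM to 249, 514, 274 and 610 CPM (log2 fold change -1.97, SE 0.40, adjusted p = 0.0399).

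Collagen genes did not separate the times. By edgeR 0 of 18 tested collagen genes passed and 0 had an unadjusted p under 0.05, and 0 passed by DESeq2 or without 2d mouse 4, although 17 of the 18 had a positive log2 fold change (median 0.77). Col1a1, the main chain of fibrillar collagen, measured 1488, 1796, 2477 and 884 CPM at 2d and 1120, 1774, 1561 and 5990 CPM at 12d (log2 fold change 0.65, SE 0.58, adjusted p = 0.417). 12d mouse 4 was above all others, and 12d mice 1 to 3 lay within the 2d range. Postn, a matricellular protein of active fibroblasts, was at 268 to 670 CPM at 2d, at 352, 619 and 673 CPM in 12d mice 1 to 3 and at 4698 CPM in 12d mouse 4 (adjusted p = 0.15), and Tnc, an adhesion-modulating matrix protein, at 46.5 to 538, at 50.1, 68.3 and 70.6, and at 937 CPM (adjusted p = 0.98). Of 19 genes of small leucine-rich proteoglycans and fibro-adipogenic progenitors 0 passed by edgeR, while 9 had an unadjusted p under 0.05, all higher, and 7 passed by DESeq2 and 9 without 2d mouse 4. Over all 14459 tested genes, 5621 had an unadjusted p under 0.05 in either direction. DESeq2 called 2015 genes higher, and 22.0% of tested genes were higher without 2d mouse 4. Dpt, a collagen-binding protein, was at 22.3, 39.4, 54 and 96.3 CPM at 2d and at 74.8, 80.4, 151 and 260 CPM at 12d (log2 fold change 1.42, SE 0.52, adjusted p = 0.0864).

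Within 27 tested matricellular, crosslinking and protease genes 2 passed, both lower at 12d. Without 2d mouse 4, 2 were higher and 8 lower, where 22.0% and 21.1% of all tested genes were. Thbs1, the matricellular thrombospondin, measured 437, 328, 689 and 156 CPM at 2d and 33, 52.9, 48 and 157 CPM at 12d. 12d mouse 4 was level with 2d mouse 4 and the other 12d mice were lower, with a log2 fold change of -2.47 (SE 0.59, adjusted p = 0.0476). Timp1, an inhibitor of matrix metalloproteases, was at 126, 199, 321 and 7.99 CPM at 2d and at 7.8, 8.68, 8.3 and 43.3 CPM at 12d and did not pass (log2 fold change -3.26, SE 1.01, adjusted p = 0.0617); it overlaps Syn1 on the opposite strand, and whether the counting used strand is not stated.

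Of 23 vessel genes 3 rose and 1 fell. Without 2d mouse 4, 8 rose and 6 fell, against 22.0% and 21.1% of all tested genes in that fit. Kdr, the main receptor of VEGF on endothelium, measured 98.5, 108, 87.9 and 113 CPM at 2d and 217, 218, 208 and 126 CPM at 12d (log2 fold change 0.91, SE 0.20, adjusted p = 0.0448). 12d mouse 4 was the lowest 12d mouse and above all 2d mice. Tie1, an endothelial receptor, and Pdgfrb, the receptor of pericytes, rose by 0.69 and 0.63, the vessel peptide Apln fell by 3.21, and the endothelial junction genes Cdh5 and Pecam1 differed by 0.12 (SE 0.21) and -0.23 (SE 0.25) without passing. Of 20 Schwann cell and pain mediator genes 1 passed, and without 2d mouse 4, 3 were higher and 4 lower, near the same shares. The gene that passed was P2rx4, an ATP-gated channel, which fell by 1.40 (48.8, 52.5, 33.6 and 75.1 CPM at 2d, 11.6, 17.9, 15.5 and 34.2 CPM at 12d, adjusted p = 0.0483). P2rx4 was lowest at 2d in mouse 3, which had almost no salivary gland RNA, and was at 11.3, 68.9 and 36.8 CPM in vehicle libraries with 0.0134%, 24.9% and 9.67% of it. At 6d, however, P2rx4 was at 44.2, 57.7 and 36.6 CPM in libraries with 0.00391% to 0.00885% of that RNA. The part of salivary gland RNA in the P2rx4 values was not tested. Gdnf, a neurotrophic factor, was at 1.43 to 26.6 CPM at 2d and at 1.8 to 4.22 CPM at 12d and did not pass (adjusted p = 0.0613).

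Among 20 muscle atrophy and growth genes 2 rose and 1 fell, the latter being Mt1, which is also in the stress list. Without 2d mouse 4, 6 rose and 7 fell, against 22.0% and 21.1% of all tested genes. Igf2, a fetal growth factor, rose from 22.9, 33, 35 and 36.8 CPM to 66.8, 61.1, 119 and 334 CPM (log2 fold change 2.19, SE 0.54, adjusted p = 0.0477), with 12d mouse 4 highest and no overlap, and Map1lc3a, an autophagosome protein, rose by 0.99. The ubiquitin ligase of atrophy Trim63 was at 887, 673, 716 and 196 CPM at 2d and at 231, 311, 215 and 112 CPM at 12d (log2 fold change -1.51, SE 0.47, adjusted p = 0.0621), and Mstn, the inhibitor of muscle growth, at 13.8 to 57 CPM and at 148, 128, 97.6 and 34.8 CPM (log2 fold change 1.65, SE 0.51, adjusted p = 0.0621). Neither passed.

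The largest changes among DEGs without overlap included genes outside these lists. Krt80, a keratin, measured 158, 128, 121 and 5.7 CPM at 2d and 1.58, 1.19, 2.12 and 1.8 CPM at 12d (log2 fold change -5.94, SE 0.91, adjusted p = 0.0243), Gdf5, a bone morphogenetic protein relative, 19.8, 13.6, 4.94 and 12.8 CPM against 0.17, 0.07, 0.193 and 0.72 CPM (log2 fold change -5.37), and Has1, a hyaluronan synthase, 1.2, 6.4, 18.5 and 0.648 CPM against 0.07 to 0.36 CPM (log2 fold change -4.89). Gdf5 was lowest at 2d in the library with almost no salivary gland RNA and was at 0, 8.7 and 2.19 CPM in the vehicle libraries, higher where that RNA was present. At 6d, however, Gdf5 was at 1.9, 14.7 and 20.3 CPM in libraries with 0.00391% to 0.00885% of that RNA. The part of salivary gland RNA in the Gdf5 values was not tested. 3110099E03Rik fell by 5.05 and was at 5.63, 7.71, 0.294 and 12.4 CPM at 2d and at 0.0934, 12.6 and 7.4 CPM in the vehicle libraries, high in the libraries with salivary gland RNA and low in the others. The 12d values of 3110099E03Rik and Has1 rested on at most 5 and 7 counts per library. Adm2, a peptide hormone of the calcitonin family, was at 1.56, 2.57, 1.08 and 3.07 CPM at 2d, again lowest in mouse 3, and had at most 2 counts in any 12d library, so no fold change is given. On the other side Ociad2 rose from 3.59, 5.65, 4.36 and 8.64 CPM to 55.1, 26.3, 40.6 and 21 CPM (log2 fold change 2.68, SE 0.38, adjusted p = 0.0223), D0H4S114 from 30.9, 51.9, 54.3 and 226 CPM to 774, 450, 597 and 405 CPM (log2 fold change 2.61), and Nppc, the precursor of C-type natriuretic peptide, from 0.0599 to 0.432 CPM to 1.65 to 3.36 CPM (log2 fold change 3.42). Mybphl (3.79), the potassium channel genes Kcnf1 (3.38) and Kcne1l (3.01), the sodium pump subunit Atp1a4 (2.92), the orphan receptor Gpr20 (2.65) and Gm4841 (2.63) rose from levels of at most 1.08 CPM at 2d.

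Marker lists of other tissues were read in the same way. Of 11 keratinocyte genes 1 fell, Sprr1a with -3.68, of 15 cartilage, bone and tendon genes 1 rose, Alpl with 0.62, and of 3 tested erythrocyte genes 1 fell, Alas2, the haem synthesis enzyme of red cell precursors, with -1.43. Without 2d mouse 4, 2 of the keratinocyte genes and 3 of the 3 erythrocyte genes were lower, as were 3 and 3 by DESeq2, and 5 cartilage, bone and tendon genes were higher and 1 lower. Of 17 adipocyte genes 0 passed by edgeR, 3 had an unadjusted p under 0.05, 3 passed by DESeq2, and 6 were higher without 2d mouse 4. Over all 14459 tested genes, 5621 had an unadjusted p under 0.05, and DESeq2 called 2015 higher and 2330 lower. The shares without 2d mouse 4 were 22.0% higher and 21.1% lower. The cartilage, bone and tendon score was 4.99 in 12d mouse 4 and 2.06 to 3.41 in the other 7 mice, so it moved with the matrix and developmental genes of that mouse; its part in their values was not tested. The 26 genes that the study named as raised early after 10U Col, a choice made on these 2d libraries and therefore not independent evidence of direction, were all lower at 12d in log2 fold change and 11 passed, or 18 without 2d mouse 4. The 14 that it named as reduced early were all higher, and 4 passed, or 12 without 2d mouse 4. These 14 too were chosen on the 2d libraries and are not independent evidence of direction.

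Mice at 6d and with vehicle gave the levels around the comparison, on a CPM scale set over 14 libraries and without a test. Vehicle libraries held 0.166% to 0.236% of ambiguous reads against 0.675% to 0.875% in the 8 libraries compared, for a reason not given in the sources used here, and 2 of the 3 held 24.9% and 9.67% salivary gland RNA. Ccl2 lay at 3.12, 9.72 and 1.83 CPM at 6d and at 0.214 to 0.748 CPM with vehicle, so 6d mice were between 2d mice 1 to 3 and vehicle, and 12d mice, at 0.962 to 2.37 CPM, were above vehicle. Myl1 was at 2015 to 2836 CPM at 6d, between the 2d and 12d ranges of 574 to 1908 and 3881 to 6725 CPM, and vehicle was at 3192 to 7534 CPM. Myh3 instead peaked at 6d with 896, 961 and 517 CPM, against 3.29 to 8.47 CPM at 2d, 9.46 to 184 CPM at 12d and 18.5 to 25.8 CPM with vehicle. Myog, at 214 to 308 CPM, was higher at 6d than in every 2d and 12d mouse. Col1a1 and Postn at 6d reached 3185 to 6336 and 4253 to 8071 CPM, and 12d mouse 4, at 6002 and 4708 CPM, was within these ranges while the other 12d mice were below them.

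**Figure D4:**
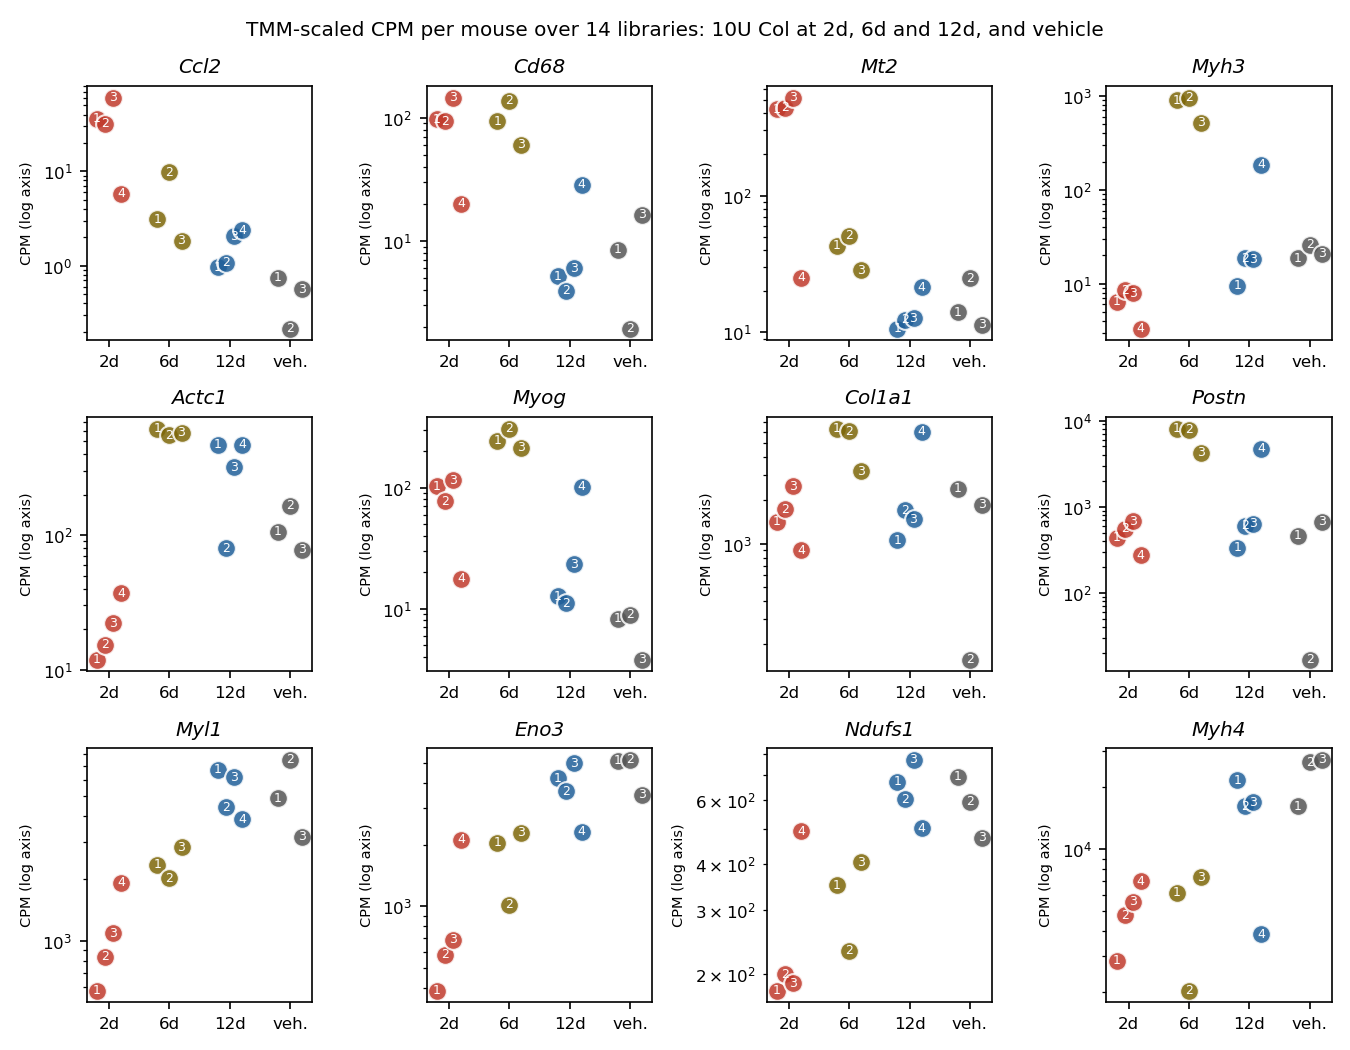
CPM of 12 genes in each mouse at 2d (red), 6d (ochre), 12d (blue) and with vehicle (grey), scaled over 14 libraries, on log axes. Myh3, Myog and Postn are highest at 6d with 12d mouse 4 the nearest 12d mouse, while Ccl2 and Mt2 are highest in 2d mice 1 to 3 and Myl1 and Eno3 are higher at 12d than at 2d.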

How the data were processed

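Whole MM was profiled by RNA-seq. Per the labels and methods, the authors made stranded poly(A) libraries, read single ends of 50 bases and aligned them to mm9; their processing notes name bcl2fastq, TopHat2 and HTSeq, while the annotation and the strand setting are not given in the sources used here. The authors deposited raw counts per gene symbol for each library. The 5 closing lines of each file name no gene and were left out of totals and tests; reads aligned to several places are among them (39.5% to 46.5% in the 2d and 12d files), and reads in no gene took 17.2% to 20.7%.

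Groups follow the titles. Counts of genes with a minimum of 10 in 3 of the 8 libraries were scaled by TMM and tested in R 4.3.3 with edgeR 4.0.16 (quasi-likelihood test, time as the only factor, two-sided, Benjamini-Hochberg adjustment over 14459 genes). SE is the absolute log2 fold change over the square root of F. List scores are means of log2 CPM with a prior count of 2. RPKM used exon lengths of GENCODE vM1 on mm9, to which 21627 of 22609 symbols matched directly and 52 by synonym; 930 received the median length of 2837 bp. The number of counts limits precision for genes near 10 counts, and p-values set the difference of the groups against the spread between these mice. None of 28 library pairs was identical.

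Genes named are the 10 DEGs per direction with the largest changes and no overlap of groups, key members of 29 gene lists, and the 3 members per list with the smallest p; other list members that passed, named as examples, were chosen after their values were seen. Members and lists were chosen with earlier results of these data known. Alternatives were DESeq2 1.42.0, edgeR with its size factors, a fit of unfiltered genes, the replicate number as a block, a fit with the 6d group, each mouse left out, no RPKM threshold and an adjusted p under 0.01; a salivary gland covariate and leaving out both mice numbered 4 were added after seeing the data. The fits were run on simulated counts in which no single mouse was set apart and salivary gland RNA did not vary between mice. That run therefore does not cover these features of the data. Several genes overlap a gene on the other strand (Actc1, Ccl2, Col1a1, Igf2, Il1b, Ndufs1, Casq1 and others), whose reads could be included. A few genes that the rule names are not reported here.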

Additional observations from a re-analysis of the deposited data

Results flagged for a closer look

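Within the groups of 4 mice, 51 of 410 tested sets of values held a mouse whose gap to the nearest other mouse divided by the group's range was over the 95% critical value of Dixon's test; chance alone marks about 1 in 20 such sets. Values are log2 CPM, with the range of the other 3 mice of the group, and no explanation was tested.

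Among list scores, 2d mouse 4 was high for adult thick filament and M line genes (7.77 against 6.69 to 6.85), calcium handling and excitation-contraction coupling genes (8.77 against 7.70 to 7.76) and genes that the study named as reduced early (9.28 against 8.29 to 8.41), and low for developmental sarcomere and postsynaptic genes (3.31 against 4.14 to 4.31) and stress, immediate early and metal-binding genes (5.10 against 7.06 to 7.38). 2d mouse 3 was low for salivary gland (0.42 against 8.89 to 9.91) and keratinocyte and hair follicle (0.84 against 2.09 to 2.25) markers. 12d mouse 4 was high for acute cytokines and acute-phase genes (1.80 against 0.62 to 0.76) and cartilage, bone and tendon (4.99 against 2.71 to 3.04) markers.

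Among genes, 2d mouse 4 was low for Ankrd1 (2.47 against 9.20 to 10.19), Cd63 (5.96 against 7.64 to 7.87), Chrng (0.03 against 1.61 to 1.73), Cxcl2 (-2.34 against 3.61 to 4.65), Krt80 (2.54 against 6.92 to 7.31), Mt1 (4.77 against 8.91 to 9.21), Mt2 (4.63 against 8.81 to 9.01), Myc (3.99 against 7.06 to 7.36), Myf6 (6.58 against 8.43 to 8.70), Runx1 (3.96 against 6.82 to 7.24), Socs3 (3.49 against 6.86 to 7.41) and Tnnt2 (-0.17 against 2.15 to 2.59). It was high for Atp5k (6.26 against 4.74 to 4.95), Casq1 (10.95 against 9.16 to 9.46), Cdkn1c (5.95 against 4.84 to 5.02), Myh1 (13.20 against 11.79 to 11.96), Ndufs1 (8.92 against 7.55 to 7.70) and Ryr1 (11.38 against 10.72 to 10.74).

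12d mouse 4 was high for Ankrd1 (4.51 against 1.67 to 2.10), Fcgr1 (3.63 against 0.38 to 0.89), Ifit2 (5.11 against 3.64 to 3.77), Irf7 (5.48 against 3.61 to 3.86), Isg15 (3.92 against 2.35 to 2.51), Mki67 (5.39 against 3.50 to 3.68), Runx1 (5.72 against 3.05 to 3.42), Timp1 (5.44 against 2.98 to 3.14), Tnc (9.87 against 5.65 to 6.14) and Top2a (4.47 against 2.55 to 2.75). It was low for Atp2a1 (13.70 against 14.74 to 14.93), Kdr (6.98 against 7.70 to 7.77), Myod1 (5.83 against 6.91 to 7.03), Pfkm (10.74 against 11.73 to 11.86), Pygm (10.92 against 12.25 to 12.52), Slc2a4 (8.61 against 10.10 to 10.15), Smtn (7.05 against 7.63 to 7.73) and Xirp1 (6.72 against 8.07 to 8.31).

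Other mice were marked for fewer genes. 2d mouse 1 was low for Acta2 (6.51 against 6.89 to 6.95), 12d mouse 1 was high for Mcm2 (4.14 against 3.85 to 3.87) and Mef2c (9.99 against 9.76 to 9.79), and 12d mouse 3 was high for C3 (6.85 against 6.31 to 6.38), Cd163 (4.02 against 3.59 to 3.62) and Pecam1 (8.24 against 7.83 to 7.87).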

How the results depend on the processing

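Counts of calls depended on the processing more than directions did. Genes passed as higher, genes passed as lower, DEGs higher and DEGs lower numbered 491, 774, 230 and 497 over the 8 mice by edgeR, 2015, 2330, 754 and 1067 by DESeq2, 196, 435, 110 and 327 with no low-count filter, 1924, 2042, 703 and 962 in a fit with the 6d group, 0, 31, 0 and 31 with the salivary gland score as a covariate and 4062, 4123, 1660 and 1657 without both mice numbered 4, the last pair of settings being chosen after seeing the data. With each mouse left out in turn they ran from 0 to 3139, 0 to 3009, 0 to 1476 and 0 to 1249, lowest without 12d mouse 1 and highest without 2d mouse 4. An adjusted p under 0.01 left 0 and 1 genes. DESeq2's size factors in edgeR gave 423, 799, 191 and 501. Deviations of same-numbered mice of the groups had correlations of 0.105, -0.244, -0.037 and -0.404, against -0.309 to 0.459 for mice of different numbers. So few values cannot decide whether the numbers pair the mice. With the replicate number as a block the counts were 1, 2, 1 and 2. Of 82 named genes that passed, 82 passed by DESeq2, 58 with no filter and 5 with the covariate. The covariate was the mean log2 CPM of the salivary gland markers, so it takes up the change of these markers by construction. With it the log2 fold changes of the markers Amy1, Bpifa2e, Cst10, Dcpp1, Dcpp3 and Smr3a were 1.11, 0.73, 1.50, 3.32, 0.24 and 0.86. These values are therefore no test of those genes. Without both mice numbered 4, Chrng, Tnc and Tnnt2 turned to -2.12, -2.47 and -1.16. Depth limits genes near 10 counts, where 10 counts are up to 0.674 CPM. Apart from what these fits leave out by construction, the cause was not tested.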
